A study of Mus musculus with 10 samples.

Results

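The miRNAs described here are miR-33 and miR-378, which are cut from introns of genes that control lipid and energy metabolism. They were taken as every row of the deposited table named miR-33 or miR-378, with or without a letter and an arm. The rule found 3 of the 285 mature miRNAs listed: miR-33, miR-378 and miR-378b. The table comes from small RNA sequencing of whole mouse liver at 14 weeks of age, with 5 libraries from mice carrying a liver knockout of Tsc1 (L-Tsc1KO in the labels) and 5 from littermate controls. Tsc1 encodes a subunit of the TSC complex, which restrains the growth kinase mTORC1. The sources used here do not name the Cre driver, the sex or the strain of the mice. Tsc1 itself was not analysed here. The libraries held between 6228497 and 12129069 reads of listed miRNAs.

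MicroRNAs are short RNAs that pair through their seed, the bases 2 to 8 from the 5′ end, with messenger RNAs and lower their output. Those in introns are usually transcribed together with the gene that holds them. Srebf2 encodes SREBP-2, the transcription factor that raises cholesterol synthesis and uptake when sterols are low, and miR-33 is known to repress the cholesterol exporter Abca1 and genes of fatty acid oxidation. Ppargc1b encodes PGC-1β, a coactivator of mitochondrial and lipid synthesis genes, and in mice miR-378 is known to repress Crat, an enzyme of acylcarnitine metabolism. Messenger RNA of the host genes was not analysed here.

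In the GENCODE M21 annotation of GRCm38 the miR-33 hairpin lies at chr15:82198122-82198190 on the plus strand, within an intron of Srebf2 and on its strand. Both of its arms are shown because the row named miR-33 carries no arm and could hold reads of either. The sequences are from RefSeq (GRCm38.p6), written 5′ to 3′ with the seed in capitals.
miR-33-5p: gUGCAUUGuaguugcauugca
miR-33-3p: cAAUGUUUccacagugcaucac
In the hairpin, the capitals mark both mature arms.
Mir33 hairpin: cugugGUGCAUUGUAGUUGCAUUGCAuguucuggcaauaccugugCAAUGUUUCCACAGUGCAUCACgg
In older miRBase naming the bare name stood for the main arm, which is the 5p arm of miR-33. Of the 285 rows, 239 could be matched by name to a RefSeq mature miRNA, and no other of these shared the seed of either arm of miR-33.

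The hairpin of miR-378, named Mir378a, lies at chr18:61397835-61397900 on the minus strand, within an intron of Ppargc1b and on its strand. That of miR-378b lies elsewhere, at chr11:88352773-88352864 on the plus strand, within an intron of Msi2 but on the opposite strand. miR-378b is therefore a member by name and sequence and not by host gene. Of its 20 bases, the first 19 also occur without a break in the Mir378a hairpin and in the Mir378c hairpin on chromosome 14. A read that lacks the last base can thus come from more than 1 of these genes. The sources used here do not say how such reads were assigned, so the level of miR-378b is uncertain to that extent.

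A few libraries stood apart from the rest. Control replicate 2 had a summed level of 5638 normalised reads for the striated muscle miRNAs, against 268 to 559 in the other controls and 151.1 to 919 in mutants. Its biliary epithelial miRNAs summed to 35789 normalised reads, and those of the other 9 libraries to between 3126 and 7014. Control replicate 1 and Tsc1 mutant replicate 1 received the lowest weights when libraries were weighted by how well they followed their group, at 0.179 and 0.386. For the 3 members, results that rest on these libraries are given with and without them. The hepatocyte miRNAs, led by miR-122, summed to between 3740773 and 5659129 normalised reads in the 10 libraries.

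miR-378 was the most abundant of the 3 and had the highest mutant over control fold change among them, but it did not pass the test. Its level was 138686 normalised reads in control replicate 1, 89292 in replicate 2, 121110.3 in replicate 3, 100987 in replicate 4 and 133823 in replicate 5. In the Tsc1 mutants it was 214757, 136736, 175154, 136731 and 130176 normalised reads in replicates 1 to 5. The groups overlapped: the lowest mutant lay below the 2 highest controls, and the 2 highest libraries were mutants. The control mean was 116780 ± 21178 and the mutant mean 158711 ± 36027 (SD, n = 5 each). The log2 fold change was 0.44 ± 0.18 (SE), a 1.35-fold difference, with a 95% interval from 0.05 to 0.82. The limma p was 0.0313 before and 0.165 after Benjamini-Hochberg adjustment over all 285 miRNAs, and the exact permutation p of this value alone was 0.0556. By unadjusted p miR-378 ranked 54 of 285, and 22.5% of all miRNAs had an unadjusted limma p below 0.05. None of the 3 members passed at a limma adjusted p of 0.05, where 13.0% of all miRNAs passed (10.9% as higher, 31 miRNAs, and 2.11% as lower, 6 miRNAs). The levels of the 2 groups also overlapped for each of the 3, and they did not overlap for 12.6% of all miRNAs (10.2% higher and 2.46% lower in mutants). A change in the number of cells of a type and a change in RNA per cell cannot be told apart in whole liver.

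**Figure D1:**
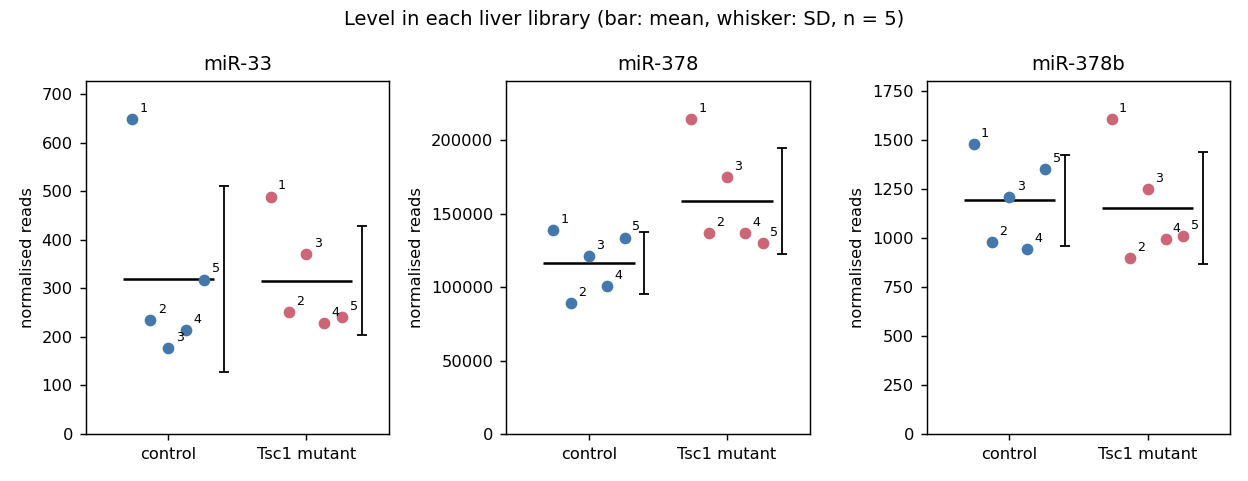
Normalised reads of miR-33, miR-378 and miR-378b in each library, on axes that start at 0. Points are libraries numbered by replicate, bars the group means and whiskers the SD (n = 5); for each miRNA the groups overlap, and 3 of the 5 mutant libraries of miR-378 lie between 130176 and 136736.

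The difference in miR-378 varied with single libraries without changing sign. With 1 library left out at a time it ran from 0.32, without Tsc1 mutant replicate 1, to 0.50, without control replicate 1. None of these 10 fits gave a limma adjusted p below 0.0855. Control replicate 2, with the highest striated muscle miRNAs, had the lowest normalised miR-378 of all 10 libraries, while by share of reads control replicate 4 was lowest. Without control replicate 2 the log2 fold change was 0.34 (limma adjusted p = 0.329). Without control replicate 2 and both replicates 1 it was 0.29 (limma adjusted p = 0.180).

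Shares and ratios, which do not use the deposited scaling, gave a difference of the same direction. As a share of miRNA reads, miR-378 held 1.63, 1.04, 1.17, 0.964 and 1.37% in control replicates 1 to 5. In mutant replicates 1 to 5 it held 2.35, 1.48, 1.94, 1.47 and 1.396%. All 5 mutants lay above control replicates 2 to 5, while control replicate 1 lay above 3 of the 5 mutants. The exact binomial interval of the smallest share, in control replicate 4, was 0.956 to 0.971%, so counting error was small beside the spread between libraries. The log2 difference was 0.48 ± 0.20 (SE), with an exact permutation p of 0.0556. Relative to miR-122, the main hepatocyte miRNA, the control mean of miR-378 was 3.95 ± 1.65% and the mutant mean 6.22 ± 2.62% (SD, n = 5 each). The share of miR-122 itself was 32.9 ± 5.30% in control libraries and 29.3 ± 4.52% in mutant ones. The log2 difference in the ratio was 0.65 ± 0.35 (SE), with an exact permutation p of 0.103. Relative to the summed hepatocyte miRNAs it was 0.54 ± 0.26 (SE), with an exact permutation p of 0.0714. These 3 tests depended on single libraries, in both directions. Without control replicate 1 the exact permutation p was 0.0159 in each. The log2 differences were then 0.59 for the share, 0.86 against miR-122 and 0.70 against the hepatocyte list. Without other single libraries they fell to as little as 0.36, 0.44 and 0.40, in the same order. The exact permutation p then rose to as much as 0.111, 0.214 and 0.143.

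By mean level over the 10 libraries, miR-378 ranked 14 of 285, miR-378b 96 and miR-33 145. Reads of different miRNAs compare loosely, because ligation favours some sequences. Directly above miR-378 stood miR-194, a liver and gut miRNA, which was higher in 7 of 10 libraries, and directly below it miR-126-3p, an endothelial miRNA, which was higher than miR-378 in 6. Neither neighbour was therefore set apart from miR-378 by its spread. Of the 10 nearest in level, miR-22, miR-26a, miR-30c and miR-30d exceeded miR-378 in 4, 3, 3 and 3 of 5 controls and in 0 of 5 mutants each. None of these 4 passed the test, with log2 fold changes between -0.10 and 0.10. The others, let-7a, let-7c, miR-101a, miR-194, miR-126-3p and miR-143, exceeded it in 4, 4, 5, 4, 4 and 5 controls. In mutants they did so in 4, 3, 4, 3, 2 and 2. All these counts use the same miR-378 values, whose difference did not pass, so they are not separate evidence.

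For the level of miR-378b the test found no difference between genotypes. It was 1479.96, 978, 1210.4, 942 and 1353 normalised reads in control replicates 1 to 5. In mutant replicates 1 to 5 it was 1609, 898, 1249, 995 and 1009.7 normalised reads, and the groups overlapped over nearly their whole range. The control mean was 1193 ± 233 and the mutant mean 1152 ± 286 (SD, n = 5 each). The log2 fold change was -0.06 ± 0.20 (SE), with a 95% interval from -0.50 to 0.38 and a limma adjusted p of 0.951. Its sign was not fixed by these data: leaving out control replicate 1 gave 0.02, and so did leaving out Tsc1 mutant replicate 2.

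Relative to miR-378, however, miR-378b was lower in every mutant library than in every control. Per 100 reads of miR-378 the controls held 1.07, 1.10, 0.999, 0.933 and 1.01 reads of miR-378b in replicates 1 to 5. The mutants held 0.749, 0.657, 0.713, 0.728 and 0.776. The groups did not overlap, and neither did the counting intervals of the nearest libraries: 0.857 to 1.01 in control replicate 4, from 560 reads of miR-378b, and 0.729 to 0.825 in Tsc1 mutant replicate 5, from 1017. The control mean was 1.02 ± 0.0633 and the mutant mean 0.725 ± 0.0446 (SD, n = 5 each), a log2 difference of -0.50 ± 0.057 (SE). The exact permutation p was 0.00794, the smallest this design allows, and 0.0238 when adjusted over the 3 pairs of members. This ratio was chosen after the values had been seen. Set beside the ratios of all 284 other miRNAs to miR-378, a clear separation was common: 13.4% of them lay wholly lower in mutants and 5.99% wholly higher. In a limma fit of all 284 ratios, moderated without an intensity trend, that of miR-378b had an SE of 0.16. Its limma adjusted p was 0.0431, while 14.4% passed as lower and 9.51% as higher.

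The ratio of miR-378b to miR-378 was also the steadiest of the 284 within a genotype. Since reads that lack the last base of miR-378b cannot be told apart from miR-378, the ratio, its test and its steadiness depend on how the authors assigned such reads, and the part of that assignment was not tested. The within-genotype SD of its log2 ratio to miR-378 was 0.090, against a median of 0.52 over all 284. The levels themselves varied more, with a within-genotype SD of 0.29 for miR-378 and 0.31 for miR-378b on the log2 scale. The log2 difference in the ratio ran from -0.53 to -0.46 when each library was left out in turn. The exact permutation p was 0.00794 each time, which was fixed in advance because the groups do not overlap. Without control replicate 2 and both replicates 1 the log2 difference was -0.45. The exact permutation p was then 0.0286, the smallest that 35 splits allow and fixed in the same way.

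**Figure D2:**
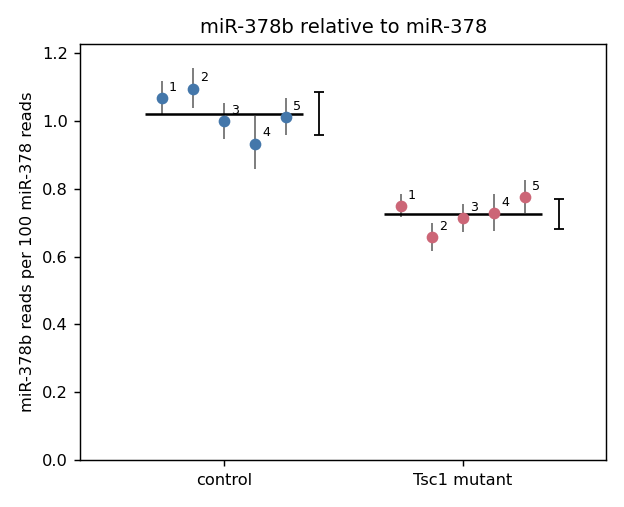
Reads of miR-378b per 100 reads of miR-378 in each library, on an axis that starts at 0. Points are libraries numbered by replicate with exact binomial 95% intervals (grey), bars the group means and black whiskers the SD (n = 5); all controls lie at 0.933 or above and all mutants at 0.776 or below.

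For miR-33 the test found no difference between genotypes, and its level varied more between libraries than that of miR-378. Its level was 649.7, 235, 178, 214 and 318 normalised reads in control replicates 1 to 5. In mutant replicates 1 to 5 it was 489, 251, 370.1, 228 and 240.3 normalised reads. The 2 libraries numbered replicate 1 were the highest of all 10, and the range of the mutants lay wholly within that of the controls. The control mean was 319 ± 192 and the mutant mean 316 ± 112 (SD, n = 5 each). The log2 fold change was 0.09 ± 0.36 (SE), with a 95% interval from -0.70 to 0.87 and a limma adjusted p of 0.952. That interval is the widest of the 3 members. The sign was not fixed either: leaving out control replicate 3 gave -0.08, control replicate 4 -0.02 and Tsc1 mutant replicate 1 -0.09. Without both replicates 1 it was 0.21 (limma adjusted p = 0.571).

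Counting limited miR-33 more than the other members. Its reads numbered 127 in control replicate 4 and 813 in control replicate 1. As a share of miRNA reads these gave 0.00204% (95% exact binomial interval 0.00170 to 0.00243%) and 0.00761% (0.00710 to 0.00816%). The intervals are far apart, so the spread between these control libraries exceeded counting error. The within-genotype SD of miR-33 was 0.62 on the log2 scale, above that of 70.9% of all miRNAs and above the 0.44 median. Per 100 reads of miR-378 the control mean was 0.266 ± 0.121 reads of miR-33 and the mutant mean 0.195 ± 0.0244 (SD, n = 5 each), and the exact permutation p was 0.262. Adjusted over the 3 pairs of members, that permutation p was 0.393. Without control replicate 3 the log2 difference of this ratio was -0.54, with an exact permutation p of 0.0159. That was the only 1 of 12 alternatives to pass. Without other single libraries the difference ran up to -0.12, with an exact permutation p up to 0.532.

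Among the 10 miRNAs nearest in mean level, a few stood on opposite sides of miR-33 in the 2 genotypes, while miR-33 itself had a log2 fold change of 0.09. Both miR-210, a hypoxia-responsive miRNA, and miR-299, of the Dlk1-Dio3 locus that the series names in its title, were below miR-33 in all 5 controls and above it in all 5 mutants. miR-299 passed the test, at 2.88 on the log2 scale (limma adjusted p = 1.99e-05), and miR-210 did not, at 0.96 (limma adjusted p = 0.166). The opposite order was seen for miR-223, a myeloid miRNA, which exceeded miR-33 in 4 of 5 controls and 0 of 5 mutants, at -0.46 (limma adjusted p = 0.608). The nearest neighbours by mean, miR-215 above and miR-340-3p below, exceeded miR-33 in 7 and 6 of 10 libraries.

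Across the libraries, miR-378b was more like miR-378 than miR-33 was. Likeness was measured as the root mean square difference between log2 profiles over the 10 libraries, each centred on its own mean, so that a small value means alike. Closest to miR-378 were miR-30e at 0.170, miR-101b at 0.182, miR-30a at 0.191, miR-29a at 0.231 and miR-340-5p at 0.232, against a median of 0.590 over all miRNAs. miR-378b followed at 0.260, in place 12, and miR-33 at 0.436, in place 81. Closest to miR-33 were miR-21 at 0.174, miR-511-3p at 0.175, miR-29c at 0.194, miR-106b at 0.206 and miR-23a at 0.227. Closest to miR-378b were miR-101c at 0.125, miR-345-3p at 0.150, miR-30a at 0.150, miR-140 at 0.155 and miR-30b at 0.156. The value is small for any pair of steady miRNAs, and the 10 points share library scaling and genotype, so it is a description only.

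**Figure D3:**
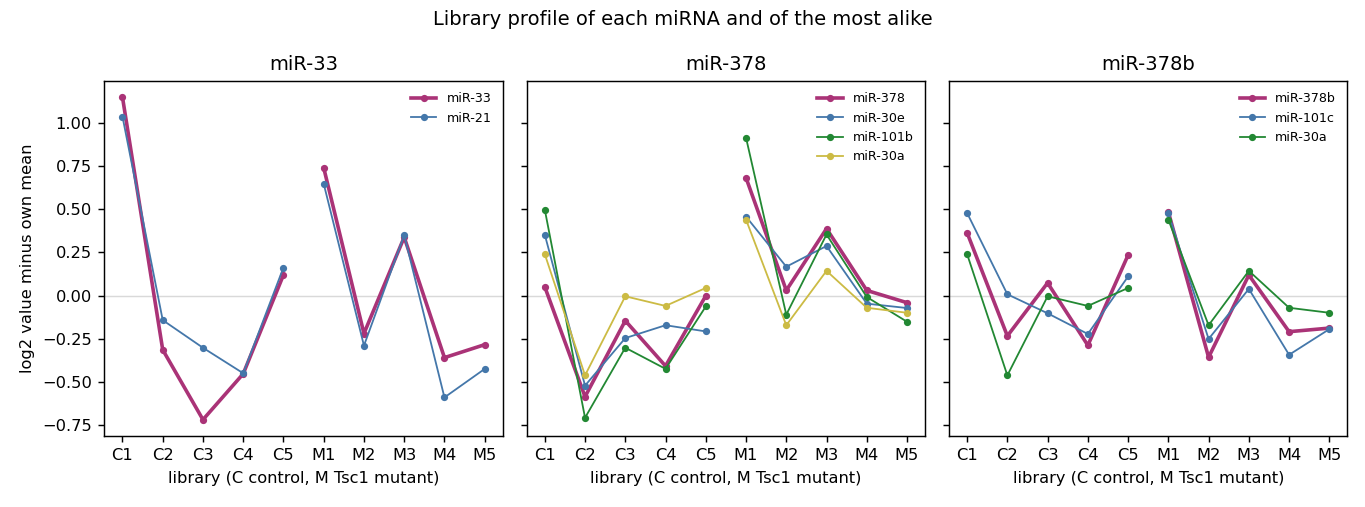
Log2 value minus the own mean over the 10 libraries for miR-33, miR-378 and miR-378b and for some of the miRNAs most like each. Lines only join points of the same miRNA within a genotype, since replicates have no order; miR-33 and miR-21, at a root mean square difference of 0.174, are both highest in the replicates numbered 1.

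The list of miRNAs with protein-coding hosts, which includes miR-33 and miR-378, had 2 rows past the threshold, both as lower. Of its 43 names, 40 were in the table as 48 rows, and for 32 of the 40 the annotation placed a hairpin within the listed host on its strand. Of the 48 rows, 0 passed as higher and 2 as lower, beside 10.9% and 2.11% of all miRNAs. The 10.9% includes miRNAs of the Dlk1-Dio3 locus such as miR-299 and miR-370, and the list holds neither of these. The median log2 fold change was -0.08 against -0.06 over all 285 miRNAs, and 15 of the 48 fold changes were positive, against 121 of the 285. The 2 were miR-149, of a Gpc1 intron, at -1.67 ± 0.28 (SE, limma adjusted p = 0.00149), and miR-582-3p, of Pde4d, at -1.24 (limma adjusted p = 0.0356). The most abundant rows were miR-101b at 0.40, miR-378 and miR-126-3p at -0.02, and the first and last of these 3 had limma adjusted p of 0.428 and 0.961. Leaving out control replicate 1 or 2, or any 1 of mutant replicates 2 to 5, ended the call of miR-582-3p, with log2 fold changes from -1.30 to -1.01. The Pank genes, which encode kinases of coenzyme A synthesis, hold miR-107 at 0.29 and miR-103 at 0.18, which were named after their values had been seen and were short of the threshold (limma adjusted p = 0.205 and 0.543).

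Of 28 miRNAs listed for known roles in lipid or glucose metabolism, 27 were in the table. Of these 27, 3 passed as higher and 0 as lower, beside 10.9% and 2.11% of all miRNAs. The median log2 fold change was 0.06. The 3 were miR-802, linked to hepatic insulin resistance, at 1.72, miR-370, which is also of the Dlk1-Dio3 locus, at 1.78, and miR-29a at 0.34. Their limma adjusted p was 0.000258, 0.00235 and 0.0395. The call of miR-29a was lost in 9 of the 10 fits without 1 library, all but that without control replicate 1, with limma adjusted p up to 0.116. The 5 most abundant of this list were miR-122 at -0.21, miR-21 at -0.12, miR-148a at 0.06, miR-143 at -0.39 and miR-378 at 0.44, so miR-378 had the highest fold change of these 5, none of which passed.

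Markers of other tissues rich in miR-378 did not pass the test as higher in mutants. Of 8 striated muscle names, 3 were in the table and 0 of 3 passed, beside 13.0% of all miRNAs. Their log2 fold changes were -1.27 for miR-1a, -1.99 for miR-133a and 0.73 for miR-206. Of 6 brown fat names, 4 were in the table and 0 passed, beside the same 13.0%. Their median log2 fold change was -0.53. Their summed level ran from 17727 to 28625 normalised reads in controls and from 16806 to 19219 in mutants, led by miR-203 at -0.10, miR-455 at -1.37 and miR-182 at -0.40. The most abundant members of the other cell type lists were miR-200b for biliary epithelium at -0.68, miR-146a for leukocytes at -0.21, miR-126-3p for endothelium at -0.02, miR-143 for stellate and smooth muscle cells at -0.39 and miR-486 for erythroid cells at 0.11. None of these passed. Over all rows of these lists, in the same order, fold changes were positive for 0 of 5, 3 of 6, 0 of 2, 1 of 5 and 2 of 3. The striated muscle and biliary values include control replicate 2, which had the highest sums of both lists, and are given only with it. The part of such cells in the miR-378 level was not tested.

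**Figure D4:**
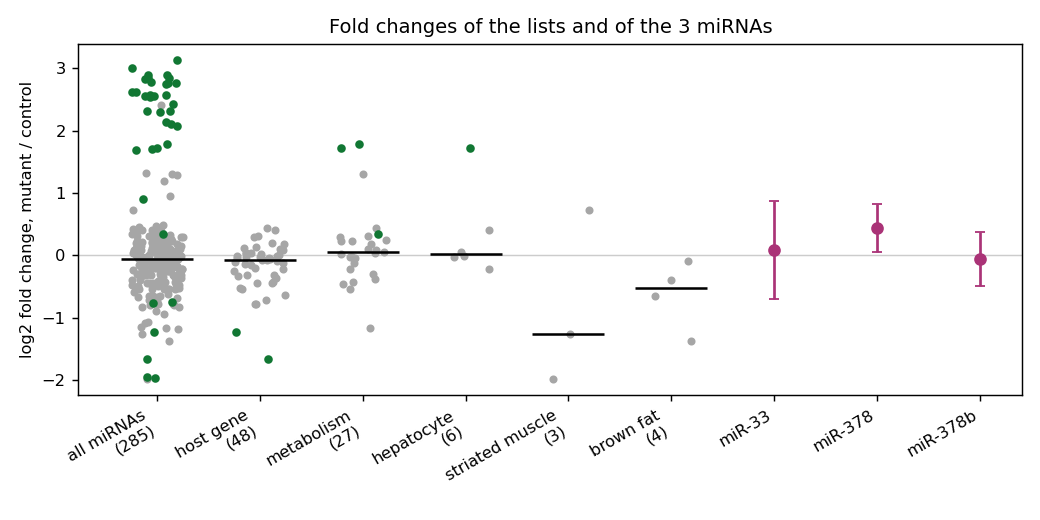
Log2 fold changes, mutant over control, of all 285 miRNAs, of 5 lists with the number of rows in brackets, and of the 3 members with 95% intervals. Green points passed an adjusted p of 0.05, grey points did not, and black bars are medians; the interval of miR-378 runs from 0.05 to 0.82 and those of miR-33 and miR-378b span 0.

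The direction of the miR-378 difference was the same under every scaling tried, and its size was not. When each library was centred on its median miRNA instead of scaled as deposited, the median log2 fold change of all miRNAs moved by -0.35, and the calls shifted from 31 higher and 6 lower to 29 higher and 45 lower. Under that scaling miR-378 was at 0.08, miR-33 at -0.27 and miR-378b at -0.41, and none passed. Relative to the median of all miRNAs, miR-378 was at 0.49, miR-33 at 0.14 and miR-378b at -0.0038 in the deposited scaling.

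**Figure D5:**
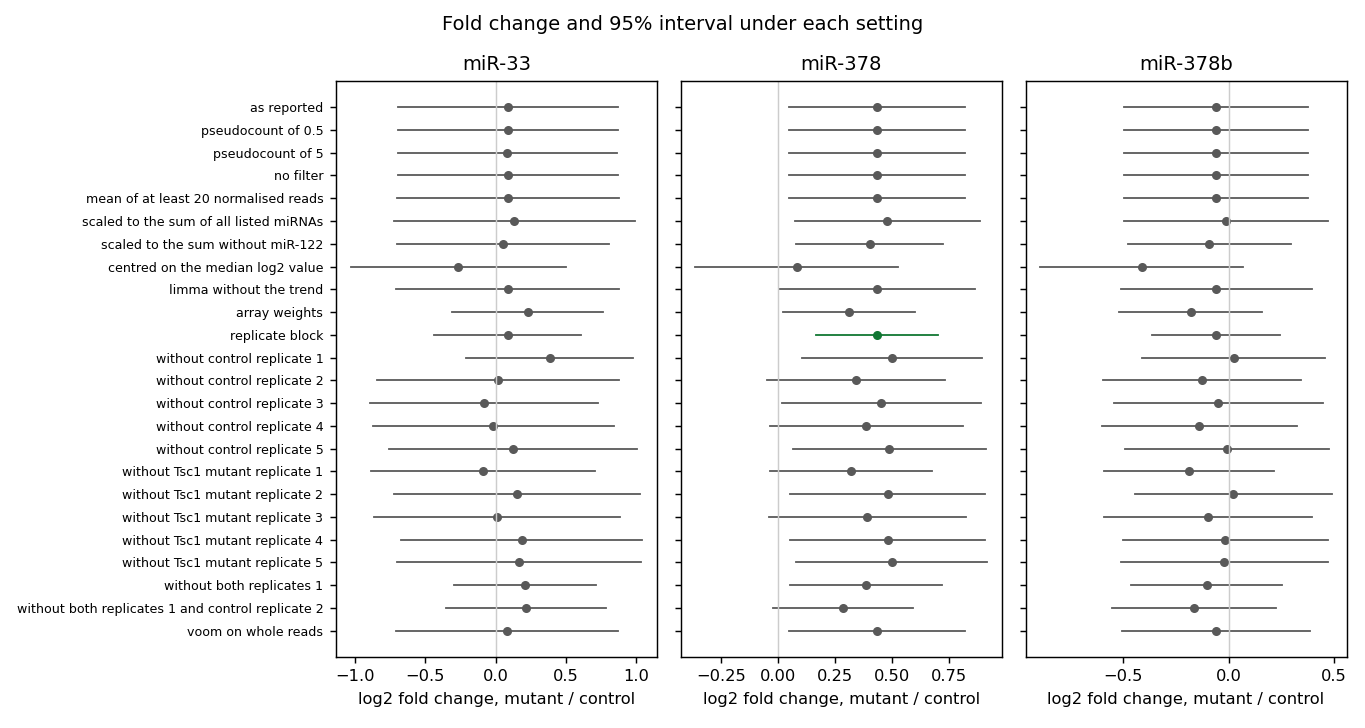
Log2 fold change, mutant over control, of the 3 members with 95% intervals under each setting tried. Green marks an adjusted p below 0.05, reached once, for miR-378 with replicate numbers as a block at 0.44, and grey marks the rest.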

How the data were processed

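Per the labels' protocols, total RNA was isolated with TRIzol and small RNA libraries were sequenced on an Illumina instrument. What the authors deposited is a signal, miRNA reads divided by 1 library factor. DESeq is named in the submitters' processing notes, and the sources used here give no version, aligner, miRNA annotation or build. Every value was a whole multiple, within 0.001, of what 1 read is worth in its library, and division by that step gave the reads, shares and exact binomial 95% intervals. Reads without molecular identifiers are not independent molecules, so intervals cover counting error only. Library numbers in the column names tied columns to samples.

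Values were compared as log2(value + 1), which understates changes of low miRNAs, with limma 3.58.1 in R 4.3.3. The model held genotype alone, with moderation and an intensity trend, over all 285 miRNAs, all of which averaged 5 normalised reads or more. The fit of the ratios to miR-378 was moderated without that trend. P-values were adjusted by Benjamini-Hochberg with a threshold of 0.05. For shares and ratios, an exact permutation test (2-sided, 252 splits) was used. The fit was checked on simulated data. The labels do not tie the libraries to separate animals, so p-values measure the spread between libraries. All 45 pairs of libraries differed by more than sampling noise in a chi-square test.

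Members and lists were chosen with earlier results of these data known. Named beside them, by a rule, are the nearest 5 miRNAs in level on each side, the 5 most alike, list members that passed and the most abundant ones. The rule was written for miR-378 and extended to the other 2, and neighbours are named in part. Alternatives were other pseudocounts, filters, scalings and weights, a replicate block and left-out libraries. Figures were drawn with matplotlib 3.10.9.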

Additional observations from a re-analysis of the deposited data

Results flagged for a closer look

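Measures of members and marker lists gave 54 sets of 5 libraries, and in 6 of these the extreme library was unusually far from its nearest neighbour, where chance, at about 1 in 20, gives 2.7. The groups overlap in what they measure, so they are not separate events. For miR-33, control replicate 1 exceeded all other controls as a share of miRNA reads, at 0.00761%, relative to miR-122, at 0.0316%, and relative to the hepatocyte list, at 0.0174%. The same library was the lowest control for the endothelial miRNAs, at 113035 normalised reads. Control replicate 2 was the highest control for the striated muscle miRNAs, at 5638, and for the biliary epithelial miRNAs, at 35789 normalised reads. No level of miR-378 or miR-378b, and no ratio between members, was set apart in this way.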

How the results depend on the processing

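The miR-378 difference kept its direction under all 23 alternatives, with log2 values from 0.08 to 0.50, and passed the threshold under 1. With replicate numbers as a block it was 0.44 (limma adjusted p = 0.0365). Same-numbered libraries deviated together with correlations of 0.81, 0.16, -0.021, 0.46 and 0.048. Only numbers 1 and 4 matched each other best, so the numbers were not taken to pair the libraries. The block gave 35 miRNAs higher and 10 lower. The number past the threshold was 74 with centring on the median and 63 with array weights, against 37, and ran from 30 to 44 without single libraries. The level of miR-33 was at -0.27 with centring on the median and ran from -0.088 to 0.38 without single libraries. That of miR-378b ran from -0.19 to 0.023 there. The miR-378 level ran from 0.32 to 0.50 there, its share of reads from 0.36 to 0.59, its ratio to miR-122 from 0.44 to 0.86 and to the hepatocyte list from 0.40 to 0.70.

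Without both replicates 1 the share and these 2 ratios passed, at 0.47, 0.66 and 0.56, and with control replicate 2 left out as well, at 0.43, 0.65 and 0.55 (exact permutation p = 0.0286 in each). The groups did not overlap in these fits, and that exact permutation p is the smallest that the remaining splits allow. The second set holds part of the libraries of the first, so it is not separate evidence. The share of reads other than miR-122 passed at 0.40 (exact permutation p = 0.0159). The ratio of miR-378b to miR-378 kept its call under all 12 alternatives, which all left out libraries. Its groups do not overlap, so that outcome was fixed in advance. The ratio of miR-33 to miR-378 ran from -0.54 to -0.12 without single libraries. It was -0.066 without both replicates 1 and control replicate 2. With centring on the median miR-29a was at -0.017. The causes were not tested. Both planned uses of edgeR, its test and its TMM factors, were not run. In their place voom was run on whole reads, chosen after the data were seen, and it changed no call of the members. The ratios between members were also chosen then. Depth limits miR-33, with as few as 127 reads in a library.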
